A study of Mus musculus with 85 samples.

Results

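The Cd300 genes encode receptors of the immunoglobulin superfamily that sit on the surface of macrophages and other myeloid cells, and 5 of them, Cd300a, Cd300lf, Cd300lb, Cd300ld and Cd300e, are described here. They were taken by symbol from the deposited tables, where they make up 5 of 23608 genes listed. All 5 passed the filter on low values in Kupffer cells (liver macrophages) of every strain measured. In bone-marrow-derived macrophages (BMDMs) all 5 passed where A/J cells were included, and 4 passed in the other comparisons, which left out Cd300e.

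The family is known for paired receptors that share a related extracellular domain but send opposite signals. Cd300a and Cd300lf carry inhibitory tyrosine motifs in their tails and recruit phosphatases such as Ptpn6, which damp myeloid activation. Cd300lb, Cd300ld and Cd300e have short tails and are activating receptors that signal through the adaptors Tyrobp or Fcer1g and the kinase Syk, and several family members bind lipids that are exposed on dying cells.

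RNA-seq was made from 85 mouse libraries in 30 groups, set by strain, cell type and treatment. Male mice 8 to 12 weeks old of 3 inbred strains, C57BL/6J, BALB/cJ and A/J, gave 69 libraries with 5.25 to 42.78 M (mega) counts, and CB6F1/J mice, the hybrid of a BALB/cJ female and a C57BL/6J male, gave 16 libraries with 55.35 to 158.29 M. Untreated Kupffer cells had 2 libraries in each inbred strain and 4 for CB6F1/J. Untreated liver sinusoidal endothelial cells (LSECs, 4 libraries a strain), stellate cells (4 A/J, 4 BALB/cJ, 3 C57BL/6J) and hepatocytes (2, 2 and 3) came from the inbred strains.

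Lipopolysaccharide (LPS), the bacterial ligand of Tlr4, was injected into fasted mice at 0.1 mg/kg 2 h before Kupffer cells were taken, in 2 BALB/cJ, 2 C57BL/6J and 5 CB6F1/J libraries. The methods describe fasted littermates without injection as controls. The labels do not say whether the untreated libraries came from fasted mice, so LPS and fasting cannot be told apart here. The AMLN diet, rich in fat, fructose and cholesterol, was fed for 30 weeks before Kupffer cells were taken, with 4 libraries of A/J, 3 of BALB/cJ and 4 of mice labelled C57BL/6J. For the last of these the methods describe a colony kept in the laboratory. The methods also describe a control diet. The labels give no ages and do not say whether the libraries called untreated here came from mice on that diet. After 30 weeks the mice of every strain could be older than the untreated ones. Diet, age and, for C57BL/6J, colony therefore cannot be told apart. NSG mice, which lack lymphocytes through the scid and Il2rg-null alleles, were conditioned with busulfan and given lineage-negative marrow cells of CB6F1/J, C57BL/6J or BALB/cJ donors. From each donor 3 libraries were made 4 months later from Kupffer cells sorted as donor-derived. The methods give MHC gates for BALB/cJ and C57BL/6J donor cells and none for those of CB6F1/J. CB6F1/J marrow was injected into the tail vein and that of the inbred strains retro-orbitally. The sorted cells are descendants of transplanted marrow in a host of another strain, so their origin and their host cannot be told apart. BMDMs were grown in medium with macrophage colony-stimulating factor and given PBS or Kdo2-lipid A (KLA, 100 ng/ml for 2 h), a purified Tlr4 ligand, with 2 libraries of each in the hybrid and in the 3 inbred strains.

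The sorted cells carried the markers of their labels. The summed level of 8 Kupffer cell markers was 11894 to 25306 TPM (the deposited level, which is scaled by transcript length) in the Kupffer cell libraries and 580 to 1687 in BMDMs, where Clec4f did not exceed 0.067 TPM. Stellate cell libraries held 258 to 8375 TPM of the same markers, the most in A/J. Donor-derived Kupffer cells in NSG recipients held more of the lymphoid markers (9.85 to 363 TPM against 0.274 to 8.53 in untreated Kupffer cells). In bulk RNA, fewer cells that express a gene and less of its RNA per cell cannot be told apart.

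All 5 genes lie in a cluster on chromosome 11 (GRCm38.p6, the assembly of mm10), at 114889152 to 114901946 on the plus strand for Cd300a and at 114922779 to 114934371, 114982443 to 114989886, 115051917 to 115066676 and 115116214 to 115135372 on the minus strand for Cd300lb, Cd300ld, Cd300e and Cd300lf. Together they span 246 kb, with Cd300c, Cd300c2, Cd300ld3, Cd300ld4 and Cd300ld5 between them. Cd300lf lies inside the span of Rab37 on the opposite strand, but their annotated exons share 0 bases, and Rab37 did not exceed 7.13 TPM. Of the 50-base windows of their transcripts, 3.89% in Cd300ld, 3.18% in Cd300a and 2.29% in Cd300lf also occur in another gene (3.66% of the windows of Cd300ld occur in Cd300lf), so that share of their reads could be counted to either gene. The strain genomes used for mapping leave out larger structural variants of A/J and BALB/cJ. The part of such variants in the strain differences of the cluster was not tested.

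The 250 bases before a transcript start in RefSeq of 3 activating receptors are shown because these genes differed most between strains or treatments. The sequences are those of the C57BL/6J reference in RefSeq (GRCm38.p6, minus strand, written 5′ to 3′), and the alleles of the other strains were not analysed here. For Cd300ld and Cd300lb this start is the outer end of the gene as given above, while for Cd300e it lies inside the gene's span. Capitals mark AGGAAG or its complement CTTCCT, the core bound by PU.1, the lineage factor of macrophages, and by other Ets factors.
Cd300e, chr11:115062040-115062289: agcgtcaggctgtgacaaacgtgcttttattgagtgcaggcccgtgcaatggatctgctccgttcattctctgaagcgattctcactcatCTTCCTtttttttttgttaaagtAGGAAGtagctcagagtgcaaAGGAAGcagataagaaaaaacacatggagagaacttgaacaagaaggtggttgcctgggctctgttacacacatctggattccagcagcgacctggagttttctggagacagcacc
Cd300ld, chr11:114989887-114990136: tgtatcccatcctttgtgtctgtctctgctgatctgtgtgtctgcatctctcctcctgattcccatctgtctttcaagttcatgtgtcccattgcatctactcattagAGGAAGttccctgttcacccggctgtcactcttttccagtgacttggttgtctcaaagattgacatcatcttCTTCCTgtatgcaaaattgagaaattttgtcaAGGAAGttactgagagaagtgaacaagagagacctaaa
Cd300lb, chr11:114934372-114934621: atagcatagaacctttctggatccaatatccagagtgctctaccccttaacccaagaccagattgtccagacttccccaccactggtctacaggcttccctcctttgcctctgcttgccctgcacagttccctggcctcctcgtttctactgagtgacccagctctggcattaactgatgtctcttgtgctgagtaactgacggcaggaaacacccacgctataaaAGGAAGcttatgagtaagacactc

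On either strand, AGGAAG occurred in 5 of 5 members' windows and in 29.5% of 32851 windows of the same length. The longer GAGGAAGT, which overlaps an AGGAAG match, occurred in Cd300ld and in 2.44% of all windows. The C/EBP letters TTGCNNAA occurred in Cd300a and in 9.56% of windows. The AP-1 letters TGANTCA occurred in 0 members and in 6.75% of all windows. Such matches describe the letters in these windows and are not sites of binding.

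The 5 receptors together reached 1499 ± 86.1 TPM in untreated A/J Kupffer cells, 767 ± 80.4 for BALB/cJ and 1253 ± 16.6 for C57BL/6J (SD, n = 2) and 973 ± 48.1 for CB6F1/J (n = 4). The member that led this sum differed by strain. Cd300e, an activating receptor, gave 56.4% of the sum in A/J, the inhibitory receptor Cd300a gave 50.0% in BALB/cJ, and the activating receptor Cd300ld gave 44.8% in C57BL/6J and 44.3% in CB6F1/J. In BMDMs given PBS the sum was lower, at 263 to 377 TPM as a group mean. The values of CB6F1/J come from tables that were made separately from those of the inbred strains, so its levels are set beside theirs with no test.

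**Figure D1:**
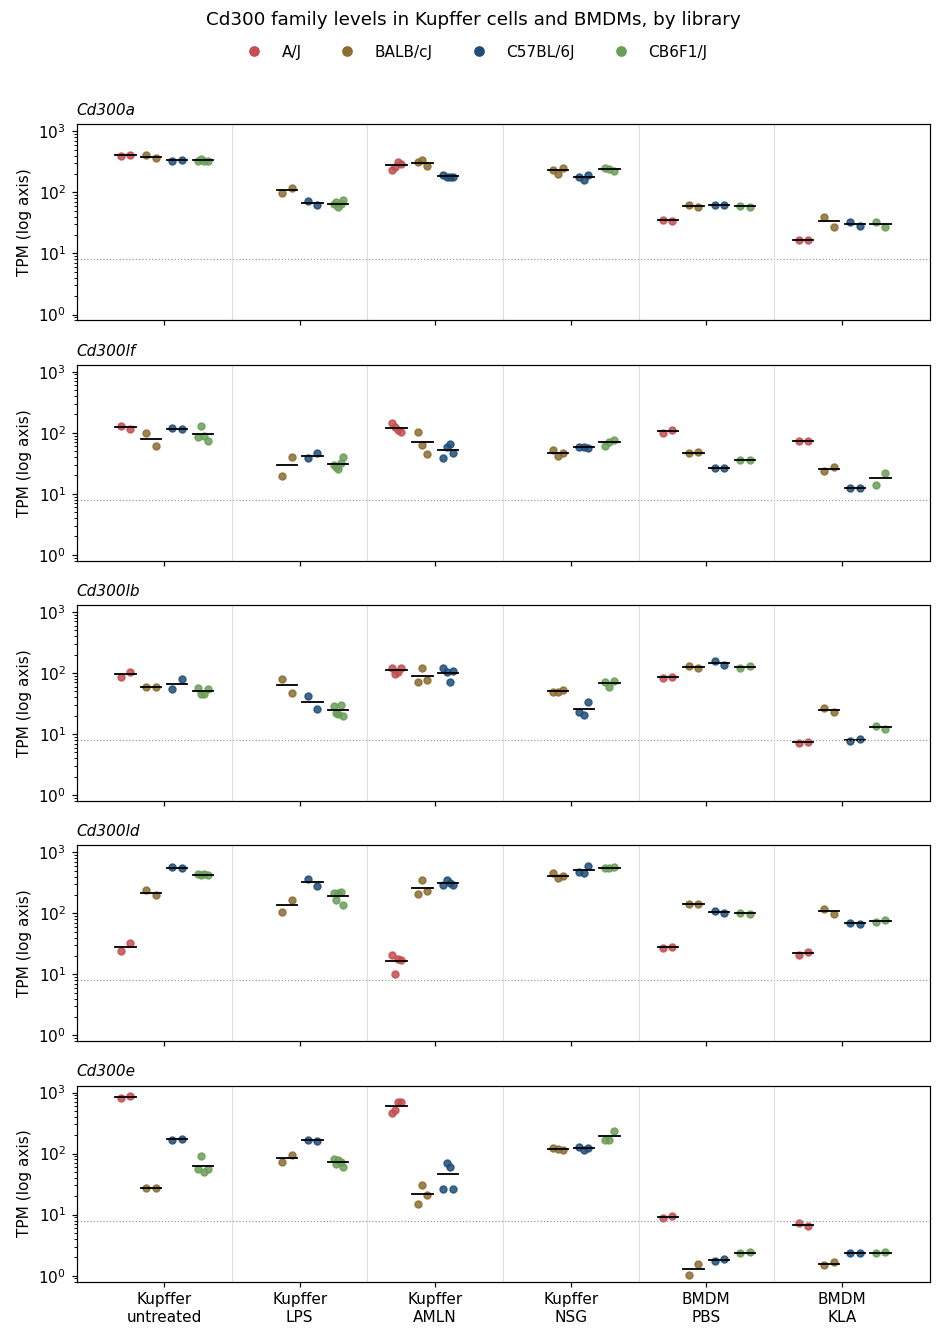
Level of each Cd300 receptor in TPM on a log axis, 1 panel a gene, with 1 point per library of Kupffer cells and BMDMs coloured by strain, a bar at each group mean and a dotted line at 8 TPM, the minimum mean for a test. Cd300e in A/J Kupffer cells lies above every other group, and Cd300ld in A/J cells lies below those of the other strains in Kupffer cells and BMDMs alike.

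Which strain differences the family carries was asked in untreated Kupffer cells, with 2 libraries a strain. A gene is called here at a Benjamini-Hochberg adjusted p below 0.05 from the quasi-likelihood test of edgeR and an absolute log2 difference above 1, and each log2 difference is given with its SE. Between A/J and BALB/cJ, 2 of 5 members were called, where 3.17% of 7758 genes tested were. Between A/J and C57BL/6J 2 of 5 were called, where 4.63% of 7779 genes were, and between BALB/cJ and C57BL/6J 2 of 5, where 5.93% of 7803 genes were. The called members were Cd300e and Cd300ld each time. The 3 comparisons share their libraries pairwise and are not independent of each other.

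Cd300e was at 803 and 889 TPM for A/J, at 26.9 and 27.7 for BALB/cJ, at 169 and 174 for C57BL/6J and at 55.1, 91.6, 49.6 and 56.7 for CB6F1/J. The inbred strains did not overlap, and the CB6F1/J libraries lay between BALB/cJ and C57BL/6J. A/J exceeded BALB/cJ by log2 4.92 ± 0.14 (30.3-fold, edgeR adjusted p = 1.3e-06) and C57BL/6J by 2.29 ± 0.11 (4.88-fold, adjusted p = 1e-05). BALB/cJ was below C57BL/6J, at log2 −2.64 ± 0.087 (adjusted p = 1.6e-06). The study itself picked Cd300e as an A/J gene from these libraries, so its direction is not independent evidence.

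Cd300ld ran in another order. Its libraries were at 23.9 and 33 TPM for A/J, 236 and 200 for BALB/cJ, 568 and 555 for C57BL/6J and 442, 425, 433 and 421 for CB6F1/J. Again no strain overlapped another, and A/J was the lowest. A/J lay below BALB/cJ by log2 −2.98 ± 0.15 (edgeR adjusted p = 1.6e-05) and below C57BL/6J by −4.33 ± 0.14 (adjusted p = 2.7e-06), and BALB/cJ below C57BL/6J by −1.35 ± 0.11 (adjusted p = 1.5e-04).

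The other receptors differed less. Cd300a was at 394 and 418 TPM for A/J, 405 and 361 for BALB/cJ, 332 and 340 for C57BL/6J and 327 to 349 for CB6F1/J, and its log2 differences between inbred strains were 0.05 to 0.26. Cd300lf was at 131 and 115 TPM for A/J, 97.7 and 61.5 for BALB/cJ, 117 and 117 for C57BL/6J and 73.3 to 131 for CB6F1/J. The BALB/cJ pair of Cd300lf spread widely and none of its 3 differences passed the adjusted p (A/J minus BALB/cJ log2 0.60, edgeR adjusted p = 0.21). Cd300lb was at 85.7 and 105 TPM for A/J, 58.1 and 59.9 for BALB/cJ, 54.0 and 79.1 for C57BL/6J and 45.5 to 56.6 for CB6F1/J, and its log2 difference of 0.65 ± 0.11 between A/J and BALB/cJ (adjusted p = 0.0096) stayed under the fold threshold. Erythroid markers ran in the strain order of Cd300e, at 147 to 746 TPM for A/J, 3.52 to 4.25 for BALB/cJ and 47.4 to 50.2 for C57BL/6J. The sum of 6 monocyte markers also differed, at 21.2 to 49.9, 11.4 to 20.9 and 124 to 183 TPM, in an order unlike that of Cd300e or Cd300ld. Their part in the Cd300 differences was not tested.

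**Figure D2:**
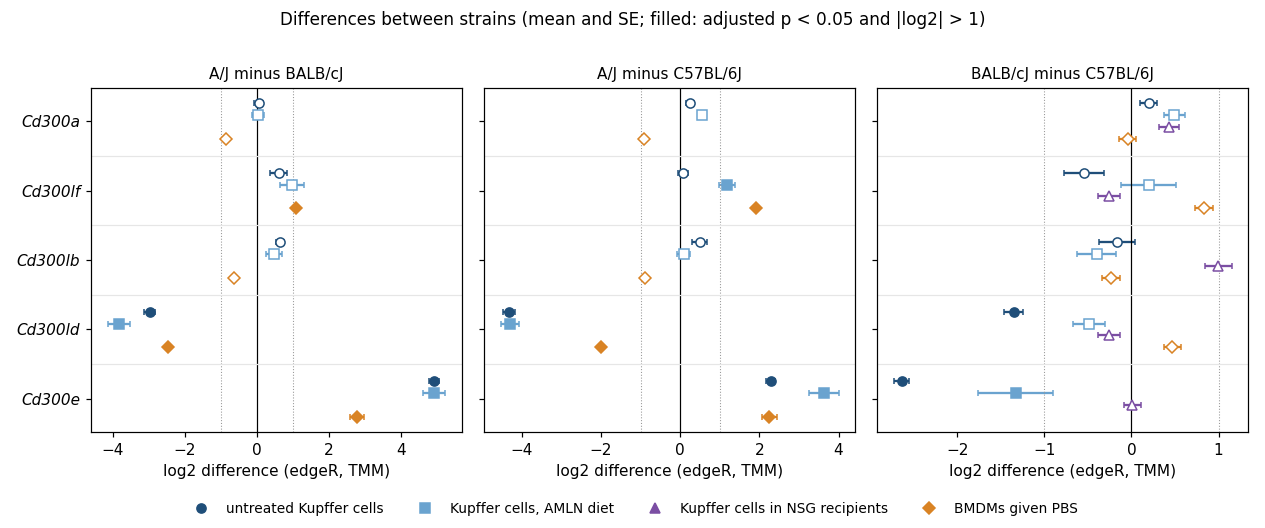
Log2 difference between strains for each Cd300 receptor, with whiskers for the SE and 1 panel for each pair of strains. Filled points were called, and symbols separate untreated Kupffer cells, Kupffer cells on the AMLN diet, donor-derived Kupffer cells in NSG recipients and BMDMs given PBS. Cd300e is highest in A/J in each setting with A/J libraries, and the Cd300e difference between BALB/cJ and C57BL/6J of −2.64 in untreated cells stands at 0.01 in NSG recipients.

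Whether these strain differences are shared by macrophages outside the liver was asked in BMDMs given PBS. A/J differed from BALB/cJ in 3 of 5 members (4.35% of 8314 genes called) and from C57BL/6J in 3 of 5 (5.53% of 8302 genes), and BALB/cJ differed from C57BL/6J in 0 of the 4 members tested (4.55% of 8199 genes). Between BALB/cJ and C57BL/6J, 3 members had an unadjusted edgeR p under 0.05, and DESeq2 also called 0.

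Cd300lf was the inhibitory receptor that separated the strains in BMDMs. It was at 100 and 113 TPM for A/J, 46.9 and 47.8 for BALB/cJ, 26.7 and 26.6 for C57BL/6J and 36.3 and 35.4 for CB6F1/J, with no overlap between strains. A/J exceeded BALB/cJ by log2 1.09 ± 0.085 (edgeR adjusted p = 6.3e-06) and C57BL/6J by 1.91 ± 0.086 (adjusted p = 1.7e-10). Cd300a ran the other way, at 35.7 and 34.3 TPM for A/J and 57.6 to 62.5 in the other strains, with log2 differences of −0.85 and −0.91 that passed the adjusted p but not the fold threshold.

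Cd300ld stood at 26.8 and 28.3 TPM in A/J BMDMs, 144 and 143 for BALB/cJ, 108 and 101 for C57BL/6J and 100 and 98.3 for CB6F1/J. A/J was again lowest (log2 −2.46 ± 0.080 and −2.0 ± 0.083), while BALB/cJ was above C57BL/6J here (0.47 ± 0.098, edgeR adjusted p = 4.5e-04, under the fold threshold), the reverse of Kupffer cells. Cd300e was near the minimum level of 8 TPM in A/J BMDMs (8.95 and 9.39 TPM) and at 1.04 to 2.45 TPM in the other strains, and A/J exceeded BALB/cJ by log2 2.78 ± 0.20 and C57BL/6J by 2.25 ± 0.19. Cd300lb was at 83.1 and 85.7 TPM for A/J, 131 and 119 for BALB/cJ, 157 and 138 for C57BL/6J and 122 and 129 for CB6F1/J, with A/J lowest at log2 −0.64 and −0.89.

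A direct test asked whether each strain difference was the same in Kupffer cells and BMDMs, as the difference in Kupffer cells minus that in BMDMs. For A/J against BALB/cJ it called 2 of 5 members (8.95% of 9044 genes), Cd300e at 2.12 ± 0.21 (edgeR adjusted p = 1.8e-04) and Cd300lb at 1.28 ± 0.13 (adjusted p = 1.9e-04). For A/J against C57BL/6J it called 4 of 5 (7.63% of 9090 genes): Cd300ld at −2.34 ± 0.15, Cd300lf at −1.86 ± 0.17, Cd300lb at 1.37 ± 0.24 and Cd300a at 1.15 ± 0.12. There Cd300e was the exception, at 0.03 ± 0.16 (adjusted p = 0.93). For BALB/cJ against C57BL/6J it called 3 of 5 (6.96% of 8977 genes), with Cd300e at −2.10 ± 0.22, Cd300ld at −1.80 ± 0.14 and Cd300lf at −1.36 ± 0.25. In these fits the Cd300e values of BMDMs rest on levels of about 1 to 9 TPM.

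Donor-derived Kupffer cells in NSG recipients placed both parental strains in the same kind of host, which asks whether a strain difference is kept when the host is shared. None of the 5 members was called between BALB/cJ and C57BL/6J donors, where 3.63% of 8043 genes were. DESeq2 also called 0, and 2 members had an unadjusted edgeR p under 0.05. For Cd300lb the count turned on the fold threshold.

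Cd300e was at 125, 120 and 113 TPM in BALB/cJ donor cells and at 128, 114 and 125 in C57BL/6J donor cells. The libraries of the 2 donors overlapped and the log2 difference was 0.01 ± 0.099 (edgeR adjusted p = 0.97). Whether the difference itself had changed from that in untreated Kupffer cells was tested as an interaction, which called 2 of 5 members (1.14% of 8395 genes), Cd300e at 2.62 ± 0.14 (adjusted p = 1.2e-07) and Cd300ld at 1.07 ± 0.19 (adjusted p = 0.0086). The interaction of Cd300ld fell to 0.95, under the fold threshold, without untreated BALB/cJ replicate 2. That of Cd300lb, at 1.13 ± 0.28, missed the adjusted p by edgeR (0.079) and was called by DESeq2 (1.15, adjusted p = 0.0017), with the replicate block (1.14) and without C57BL/6J donor replicate 3 (1.36) or untreated C57BL/6J replicate 1 (1.40).

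Against untreated Kupffer cells of its own strain, BALB/cJ Cd300e was 4.35-fold higher in NSG recipients (log2 2.12 ± 0.12, edgeR adjusted p = 6.6e-07), 1 of 5 members called where 4.82% of 7888 genes were. The C57BL/6J donor cells differed from untreated C57BL/6J Kupffer cells in 2 of 5 members (8.51% of 8108 genes), both lower in NSG recipients, Cd300lb at −1.40 ± 0.23 and Cd300lf at −1.05 ± 0.096, and Cd300e was at −0.51 ± 0.091. For Cd300lf this call was lost when libraries were scaled by their totals alone (−0.99). Cd300a was at −0.95 ± 0.093 and crossed the fold threshold, at −1.01 without the TPM minimum or without C57BL/6J donor replicate 3 and at −1.0048 with the replicate block. In BALB/cJ, Cd300ld was called higher without donor replicate 2 or untreated replicate 1 (1.01 and 1.06), and Cd300lf lower without untreated replicate 2 (−1.07).

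Cd300ld was at 459, 381 and 404 TPM in BALB/cJ donor cells, 472, 457 and 605 in C57BL/6J donor cells and 556, 548 and 572 in CB6F1/J donor cells. The lowest C57BL/6J library lay below the highest BALB/cJ library, and the log2 difference was −0.26 (edgeR adjusted p = 0.21). Cd300lb was at 48.3, 48.5 and 52.7 TPM for BALB/cJ and 23.2, 20.8 and 33.3 in C57BL/6J donor cells, without overlap, and its log2 difference of 1.00 ± 0.15 (adjusted p = 6.3e-04) sat at the fold threshold. Cd300lb was called without the TPM minimum (1.03), with the replicate number as a block (1.02), without BALB/cJ donor replicate 1 or 2 (1.00 and 1.04) and without C57BL/6J donor replicate 3 (1.22). Cd300a was at 235, 203 and 253 TPM against 177, 162 and 192 (log2 0.43 ± 0.12, adjusted p = 0.025), and Cd300lf at 40.9 to 52.6 against 55.9 to 58.3 (−0.26, adjusted p = 0.22). Monocyte markers moved with these groups, at 129 to 204 TPM for BALB/cJ and 216 to 258 in C57BL/6J donor cells against 11.4 to 20.9 and 124 to 183 in untreated cells, where Chil3 was at 0 in both strains and Ly6c2 in BALB/cJ, and the 4 lymphoid markers were at 62.5 to 281 and 250 to 363 TPM in the donor cells. Their part in the result was not tested.

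CB6F1/J cells hold both parental alleles in 1 nucleus, so reads that span a variant between BALB/cJ and C57BL/6J can be counted to each allele. Cd300a and Cd300e had 0 such reads in each of the 16 libraries and Cd300lf had 0 to 6, so no allele value can be given for them. Cd300ld and Cd300lb were tested in 5 groups of CB6F1/J libraries.

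Of variant-spanning Cd300ld reads, the BALB/cJ allele gave 31.7, 30.0, 30.0 and 27.7% in untreated Kupffer cells (40750 to 51441 reads a library, 95% Wilson intervals within 27.3 to 32.1%, which cover counting error only). With LPS it gave 34.4, 27.2, 31, 31.5 and 28.2%. In NSG recipients the shares were 42.2, 44.8 and 45.3%, in BMDMs given PBS 43.5 and 41.1% and with KLA 43.1 and 45.8%. In every one of the 16 libraries fewer of these reads were thus counted to the BALB/cJ allele than to the C57BL/6J allele. The Kupffer cells taken from CB6F1/J mice themselves held the lowest shares of it. Over all genes, 48.5 to 49.6% of the variant-spanning reads of a library were counted to BALB/cJ. A lean of read mapping towards the C57BL/6J reference at Cd300ld itself was not tested.

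The BALB/cJ allele of Cd300ld was called lower in untreated Kupffer cells at log2 −1.21 ± 0.060 (edgeR adjusted p = 1.9e-08), 1 of 2 members tested where 4.16% of 3342 genes were called, and with LPS at −1.14 ± 0.14 (adjusted p = 3.1e-05, 1 of 2 where 5.81% of 2357 were). It was not called in NSG recipients (−0.33 ± 0.11, adjusted p = 0.15, 0 of 2 where 4.09% of 3077 were), in BMDMs given PBS (−0.42 ± 0.084, adjusted p = 0.063, 0 of 2 where 3.39% of 3596 were) or with KLA (−0.30 ± 0.079, adjusted p = 0.14, 0 of 2 where 3.4% of 3240 were). In each of these 3 groups 1 member, Cd300ld, had an unadjusted edgeR p under 0.05, and DESeq2 called 0. These fits did not pair the alleles of a library. With each library as a block, Cd300ld stayed called in untreated Kupffer cells (edgeR adjusted p = 1.9e-04) and with LPS (adjusted p = 3.7e-04). In BMDMs given PBS its adjusted p was then 0.0149, at a log2 difference of −0.43 that stayed under the fold threshold. All perfectly matching reads include reads without a variant, which can dilute a difference. Counted on these, the allele difference was −0.90 in untreated cells and −0.85 with LPS, under the fold threshold.

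The shift of the Cd300ld allele difference with a Tlr4 ligand was 0.08 ± 0.18 for LPS (0 of 2 members called, 0.775% of 3485 genes) and 0.12 ± 0.12 for KLA (0 of 2, 0% of 3729 genes), with 0 members at an unadjusted edgeR p under 0.05 and 0 called by DESeq2 in both. Between untreated Kupffer cells and BMDMs it differed by −0.81 ± 0.11 (edgeR adjusted p = 3.6e-04), under the fold threshold, so that 0 of 2 members were called (1.13% of 3967 genes), also by DESeq2. From untreated Kupffer cells to NSG recipients the mean share was higher by 14.3 percentage points without overlap of libraries. An exact permutation test over 35 splits of 7 libraries gave a two-sided p = 0.0571. This is the smallest p the design allows, so the test could not pass 0.05 and adds nothing to the lack of overlap. The CB6F1/J libraries from NSG recipients were deposited separately from the untreated ones, and no donor gate is described for them. The part of this in the shift was not tested.

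The allele share can be set beside the share that BALB/cJ takes of the summed Cd300ld TPM of both inbred strains. That parental share was 28.0% in untreated Kupffer cells (26 to 29.9% over pairs of libraries), 29.5% with LPS (22.3 to 37.1%) and 44.8% in NSG recipients (38.7 to 50.1%). The allele shares of all 5 LPS-treated and all 3 NSG libraries lay inside the range of the parental pairs, while of the 4 untreated libraries 1 lay inside it and 3 above it, the highest at 31.7% against an upper end of 29.9%. In BMDMs the parental share was 57.9% with PBS (57.1 to 58.7%) and 61.2% with KLA (58.2 to 63.8%), and the allele shares of 41.1 to 45.8% lay below the range of all parental pairs.

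**Figure D3:**
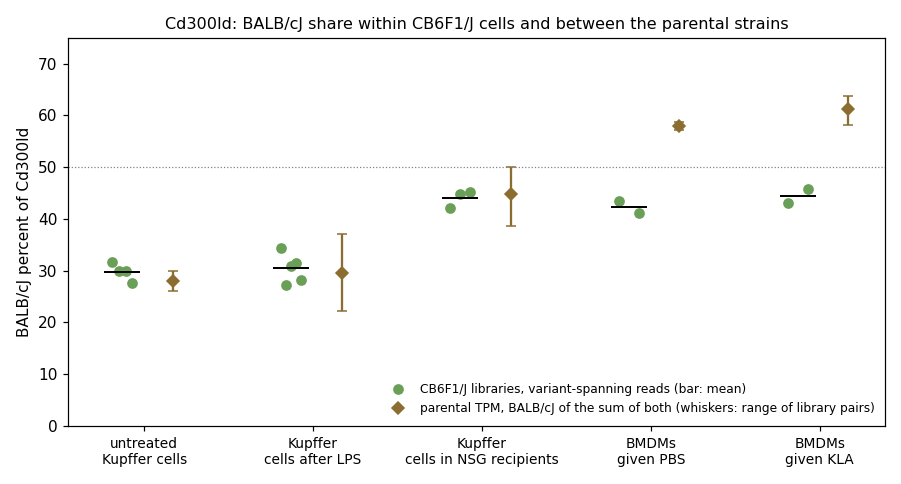
BALB/cJ share of variant-spanning Cd300ld reads in percent, 1 point per CB6F1/J library, beside the BALB/cJ share of Cd300ld TPM summed over both inbred strains, with whiskers for the range over pairs of libraries. Both lie near 30% in untreated and LPS-treated Kupffer cells and near 45% in NSG recipients, while in BMDMs the allele shares (41.1 to 45.8%) lie below the parental ones (57.1 to 63.8%).

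For Cd300lb the allele test rests on few reads. The BALB/cJ share was 52.3 to 70.0% on 96 to 127 reads in untreated Kupffer cells (Wilson intervals within 43.0 to 77.8%), 51.9 to 57.4% on 169 to 216 reads in NSG recipients, 52.9 and 59.0% on 276 and 356 reads in BMDMs given PBS and 60.0 and 60.0% on 35 and 30 reads with KLA. In LPS-treated Kupffer cells it ran from 52.7 to 94.1% on 20 to 55 reads. All of these means lay above 50%, but none of the 5 log2 differences (0.31 to 1.07) passed the adjusted p, the lowest of which was 0.21, so at this depth no allele difference of Cd300lb was detected.

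How the family responds to Tlr4 ligands was asked in vivo with LPS and in culture with KLA. In Kupffer cells Cd300a was lower with LPS in all 3 strains tested. By the scaling used here it was the only member called lower in each. In BMDMs KLA lowered Cd300lb in all 4 strains, and by the same scaling it was the only member called. Scaling matters in these comparisons, since a large share of genes changed. With library totals in place of the trimmed mean of M-values (TMM), the median log2 difference over all genes moved by −0.47, −0.58 and −0.73 for LPS in these strains (BALB/cJ, then C57BL/6J, then CB6F1/J) and by −0.24 to −0.32 for KLA, and the values below are relative to TMM. The called genes split into 1237 higher and 1254 lower for LPS in BALB/cJ by TMM, and into 783 and 2301 by totals. In C57BL/6J the split was 1430 and 1541 against 872 and 2806, in CB6F1/J 1446 and 1600 against 787 and 3199. For KLA it was 610 and 386 against 461 and 758 for A/J, 716 and 443 against 539 and 849 for BALB/cJ, 787 and 614 against 606 and 987 for C57BL/6J and 675 and 341 against 500 and 691 for CB6F1/J.

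Cd300a with LPS was at 99.7 and 120 TPM for BALB/cJ, 73.6 and 62.5 for C57BL/6J and 64.9, 69.2, 56.9, 63.8 and 74.1 for CB6F1/J, far under the untreated libraries of the same strain, which lay at 327 TPM or above. The log2 changes were −1.35 ± 0.16 (edgeR adjusted p = 6.8e-04), −1.75 ± 0.14 (adjusted p = 7.8e-04) and −1.60 ± 0.099 (adjusted p = 2e-08). In BALB/cJ 2 of 5 members were called (32.1% of 7754 genes), in C57BL/6J 1 of 5 (38% of 7809) and in CB6F1/J 1 of 5 (39.5% of 7716). With shares of this size among all genes, the member counts are near the background in BALB/cJ and below it in C57BL/6J and CB6F1/J.

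The other called member in BALB/cJ was Cd300e, which rose from 26.9 and 27.7 TPM to 73.2 and 95.1 (log2 2.07 ± 0.18, edgeR adjusted p = 2.2e-04). In C57BL/6J it was at 169 and 174 TPM untreated and 168 and 160 with LPS, and its log2 change of 0.49 ± 0.13 by TMM (adjusted p = 0.024) turned to −0.084 with library totals. CB6F1/J was at 49.6 to 91.6 TPM untreated and at 60.6 to 80.1 with LPS, with overlapping libraries (0.93 ± 0.16, adjusted p = 2.2e-04, and 1.17 without untreated replicate 2, the library at 91.6). Whether the LPS change of Cd300e differed between BALB/cJ and C57BL/6J was tested directly at 1.56 ± 0.23 and missed the threshold (adjusted p = 0.061). By edgeR 0 of 5 members were called (0.11% of 8213 genes) and 1 had an unadjusted p under 0.05, while DESeq2 called 1, Cd300e (1.54), as did the fits without the TPM minimum (1.55), with library totals (1.69) and without LPS replicate 1 of BALB/cJ (1.75) or of C57BL/6J (1.5).

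Cd300lf was at 19.8 and 40.2 TPM with LPS in BALB/cJ, 38.3 and 46.2 for C57BL/6J and 25.1 to 39.6 for CB6F1/J, below the untreated libraries in each strain, with log2 changes of −0.99, −0.91 and −0.88 under the fold threshold. Cd300ld was at 105 and 167 TPM, 368 and 282, and 136 to 226, also below the untreated libraries in each strain, at −0.23, −0.24 and −0.44. Cd300lb was at 79.0 and 47.3 TPM, 42.6 and 25.5, and 19.4 to 30.0, at 0.55, −0.43 and −0.33. With library totals Cd300lf was also called lower in all 3 strains (−1.46, −1.5 and −1.60), and Cd300ld (−1.16) and Cd300lb (−1.05) were called lower in CB6F1/J. Leaving out LPS replicate 2 of BALB/cJ, LPS replicate 2 of C57BL/6J or LPS replicate 5 of CB6F1/J also gave a call of Cd300lf in that strain (−1.61, −1.11 and −1.02). Marker sums moved with LPS over the 3 strains. Neutrophil markers (6 genes) were at 176 to 330 TPM against 75.1 to 124 in untreated libraries, where S100a9, Retnlg and Cxcr2 were at 0 for BALB/cJ, and Kupffer cell markers were at 11894 to 15489 against 19128 to 22086. The monocyte markers were at 110 to 134 TPM with LPS in BALB/cJ against 11.4 to 20.9 untreated, at 176 to 211 against 124 to 183 for C57BL/6J and at 179 to 235 against 22.2 to 53.2 for CB6F1/J. The part of these markers in the results was not tested.

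In BMDMs Cd300lb, the activating receptor linked to Tlr4 signalling, was at 7.25 and 7.52 TPM with KLA in A/J, 26.9 and 23.2 for BALB/cJ, 7.72 and 8.43 for C57BL/6J and 13.8 and 12.3 for CB6F1/J, from 83.1 to 157 TPM with PBS. No KLA library came near its PBS group. The falls were −3.25 ± 0.070 for A/J (9.49-fold, edgeR adjusted p = 5.3e-11), −2.07 ± 0.12 for BALB/cJ (4.20-fold, adjusted p = 1.1e-07), −3.98 ± 0.11 for C57BL/6J (15.8-fold, adjusted p = 3.1e-15) and −3.0 ± 0.092 for CB6F1/J (8.01-fold, adjusted p = 4.5e-06). Counts of members called were 1 of 5 for A/J (12.1% of 8213 genes) and 1 of the 4 tested in BALB/cJ (14.1% of 8208), C57BL/6J (17.1% of 8190) and CB6F1/J (12.4% of 8192). The response was smaller in BALB/cJ than in C57BL/6J by log2 1.90 ± 0.16 (adjusted p = 4.7e-05), the only member called in that direct test (1.16% of 8536 genes).

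Cd300a with KLA lay at 16.4 to 39.8 TPM over the 4 strains, with log2 changes of −0.58 to −0.80, and Cd300lf at 12.3 to 73.5 TPM, with −0.27 to −0.89. For Cd300ld the log2 changes were −0.04 to −0.40. Every strain's KLA libraries were below its PBS libraries for these 3 genes, but none passed the fold threshold by TMM. With library totals Cd300a was called lower in A/J (−1.07), C57BL/6J (−1.02) and the hybrid (−1.02), and Cd300lf in C57BL/6J (−1.13) and the hybrid (−1.05). In the hybrid Cd300lf was also called without KLA replicate 2 (−1.14). Cd300e was at 6.41 to 7.35 TPM for A/J and 1.48 to 2.40 elsewhere. Because the LPS and KLA experiments differ in ligand, in route and in dose, their values are given side by side and not compared.

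**Figure D4:**
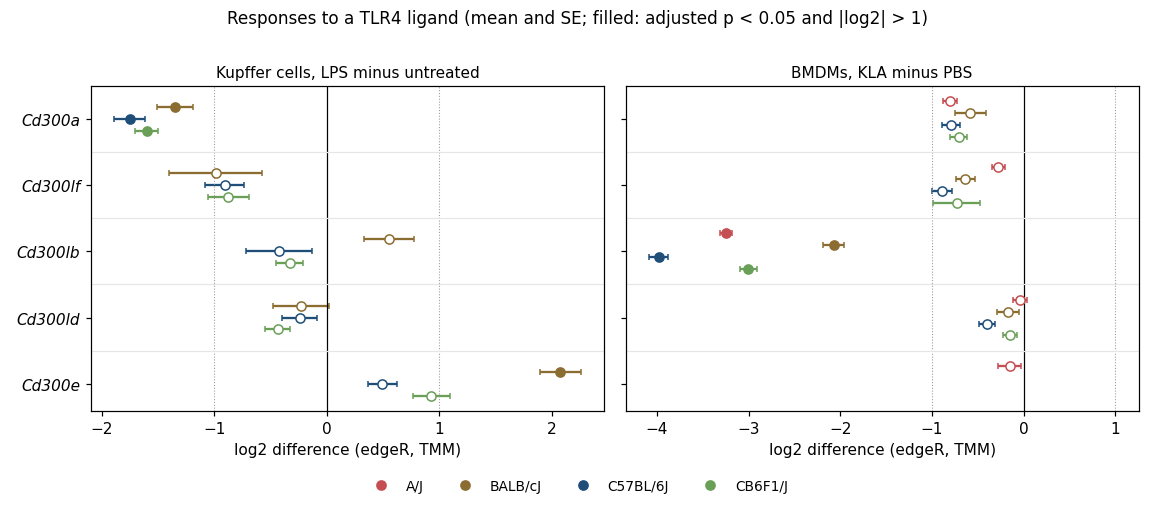
Log2 change with SE of each Cd300 receptor after LPS in Kupffer cells (left) and after KLA in BMDMs (right), coloured by strain, with filled points for called changes. Cd300a is called lower with LPS in BALB/cJ, C57BL/6J and CB6F1/J (−1.35 to −1.75) and Cd300lb with KLA in all 4 strains (−2.07 to −3.98).

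Kupffer cells of mice on the AMLN diet had the same order of strain means for Cd300e and Cd300ld as untreated ones. Cd300e was at 463, 519, 694 and 690 TPM for A/J, 14.8, 30.4 and 20.6 for BALB/cJ and 26.2, 71.4, 60.2 and 26.8 for C57BL/6J. A/J stood apart from both, at log2 4.93 ± 0.31 over BALB/cJ (edgeR adjusted p = 6.4e-04, 2 of 5 members called, 0.886% of 8242 genes) and 3.63 ± 0.37 over C57BL/6J (adjusted p = 5e-04, 3 of 5, 7.8% of 7792 genes). BALB/cJ and C57BL/6J overlapped. Their difference of −1.33 ± 0.43 (adjusted p = 0.041, 1 of 5, 15.5% of 8335 genes) lost the call without BALB/cJ replicate 1 or 3, without C57BL/6J replicate 2 or 3 and with library totals.

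Cd300ld on the diet was at 20.4, 9.96, 17.7 and 16.9 TPM for A/J, 211, 351 and 231 for BALB/cJ and 296, 346, 309 and 295 for C57BL/6J. A/J was lowest without overlap, at −3.83 ± 0.31 below BALB/cJ (edgeR adjusted p = 0.0015) and −4.30 ± 0.23 below C57BL/6J (adjusted p = 1.5e-05). With the replicate number as a block the difference from BALB/cJ stayed at −3.84 but lost its call (edgeR adjusted p = 0.0525). Cd300lf was at 142, 125, 112 and 104 TPM for A/J, 103, 63.8 and 44.4 for BALB/cJ and 37.9, 59.4, 64.9 and 47.1 for C57BL/6J, and A/J exceeded C57BL/6J by 1.18 ± 0.21 (adjusted p = 0.0063). Cd300a was at 234 to 321 TPM for A/J, 267 to 337 for BALB/cJ and 178 to 191 for C57BL/6J, and Cd300lb at 95.7 to 121, 72.5 to 122 and 72.2 to 119.

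Set against untreated Kupffer cells of the same strain, 0 of 5 members were called in A/J (0.0504% of 7930 genes), 0 of 5 for BALB/cJ (3.42% of 8236) and 1 of 5 for C57BL/6J (13.8% of 7857). Unadjusted edgeR p was under 0.05 for 1 member in A/J and 0 members in BALB/cJ, and DESeq2 called 0 in both. In C57BL/6J Cd300e was lower by −1.67 ± 0.49 (edgeR adjusted p = 0.034), a call lost without AMLN replicate 1 or 4, without untreated replicate 1 or 2 and with the replicate number as a block (−1.76, adjusted p = 0.0782). Cd300lf, at −0.94 ± 0.21, was called instead under that block (−1.08, adjusted p = 0.0058) and also without AMLN replicate 2 or 3 (−1.01 and −1.06), and Cd300lb was called without untreated replicate 2 (1.15). The direct test between A/J and C57BL/6J called 0 of 5 (1.28% of 8347 genes), with Cd300e at 1.29 ± 0.52 (edgeR adjusted p = 0.25). There 2 members had an unadjusted p under 0.05, and DESeq2 called 1, Cd300lf (1.10). Markers of other cells moved with the diet groups. LSEC markers summed to 240 to 821 TPM for A/J and 542 to 2066 in BALB/cJ against 105 to 181 for C57BL/6J, and monocyte markers to 147 to 215, 29.5 to 104 and 91.0 to 141 TPM. Erythroid markers stood furthest apart, at 355 to 572 TPM for A/J, 781 to 934 for BALB/cJ and 2.14 to 9.37 for C57BL/6J, against 3.52 to 4.25 in untreated BALB/cJ cells. Hepatocyte markers were at 82.7 to 2669, 1135 to 1830 and 137 to 509.8 TPM and stellate cell markers at 109.9 to 510.0, 543 to 1081 and 135 to 189 TPM. Their part in these results was not tested.

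The libraries of the other sorted liver cells held little of the family, apart from those of stellate cells. In LSECs the group mean of the 5 receptors summed to 2.3 to 9.8 TPM and in hepatocytes to 1.03 to 2.39. In stellate cells it was 325 TPM for A/J, 28.0 for BALB/cJ and 144 for C57BL/6J, and in A/J Cd300e gave 57.5% of it, against 56.4% of the Kupffer cell sum. Stellate Cd300e was at 104, 114, 337 and 195 TPM for A/J, 0.507, 1.96, 1.33 and 0.385 for BALB/cJ and 24.2, 21.3 and 19.1 for C57BL/6J.

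In stellate cells the markers of Kupffer cells followed the same libraries. Expressed as a percentage of the untreated Kupffer cell mean of the same strain, the 5 receptors stood at 18.4 to 22.2% in A/J stellate cells, 7 of 8 Kupffer cell markers (Clec4f, Timd4, Vsig4, Cd5l, Folr2, C1qa and Adgre1) at 21.2 to 26.4% and the eighth, Marco, at 37.7% (22.6 to 68.0% over libraries). In BALB/cJ stellate cells the receptors were at 3.31 to 4.00% and the 8 markers at 2.82 to 4.03%, and in C57BL/6J at 10.0 to 12.6% and 8.64 to 11%. The mean percentages of the receptors and of the markers were highest in A/J and lowest in BALB/cJ for every gene of both sets. Stellate cells were sorted by their autofluorescence without a gate on the leukocyte marker CD45. The paper reports that LSECs and Kupffer cells were carried over into the stellate cell libraries to a minor degree. Their part in these values was not tested.

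**Figure D5:**
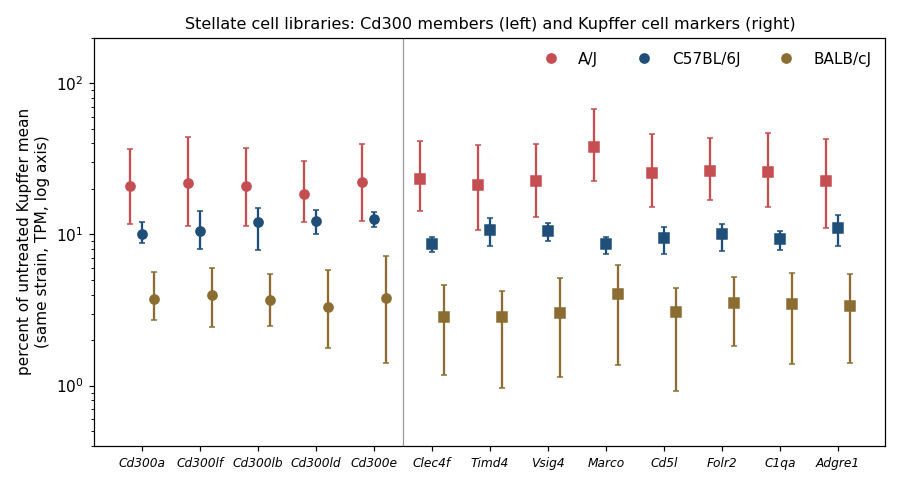
Level in stellate cell libraries as a percentage of the mean of untreated Kupffer cells of the same strain, as the mean with the range of libraries, for the 5 Cd300 receptors (left) and 8 Kupffer cell markers (right). In A/J the means run from 18.4 to 22.2% for the receptors and from 21.2 to 26.4% for the markers other than Marco, which is at 37.7%, and in BALB/cJ from 3.31 to 4.00% and from 2.82 to 4.03%.

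Ordered by group mean over the 21 groups of Kupffer cells and BMDMs, the members fell into different orders. Cd300e was highest in untreated A/J Kupffer cells and next in A/J on the AMLN diet, with no overlap, and every Kupffer cell group lay above every BMDM group. Cd300a likewise stood above every BMDM group in all 13 Kupffer cell groups by mean, although the lowest of these, CB6F1/J with LPS, overlapped C57BL/6J BMDMs given PBS. Cd300lb was highest in BMDMs given PBS (C57BL/6J, then CB6F1/J and BALB/cJ) and lowest in A/J BMDMs given KLA. Cd300ld was highest in untreated C57BL/6J Kupffer cells and lowest in A/J cells, and Cd300lf highest in untreated A/J Kupffer cells and lowest in C57BL/6J BMDMs given KLA. Of the 20 pairs of neighbours in each order, 14 overlapped for Cd300a, 15 for Cd300lf, 13 for Cd300lb, 12 for Cd300ld and 10 for Cd300e, so at least 10 neighbouring pairs in each order are not separated by their libraries.

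Likeness to other genes was measured as Pearson's r of log2(TPM + 1) over the means of 16 groups of inbred strains, among 10066 genes, as a description with no test. Cd300a was most like Tnfsf13 (r = 0.990), Tmcc3 (0.986) and Mapre3 (0.985). Cd300e was most like Slc1a3 (0.943), Gbp4 (0.940) and Enpp5 (0.936), and Cd300ld most like I830077J02Rik (0.856), Mndal (0.843) and Ppfia4 (0.830). Cd300lb had Rab3il1 (0.896), Zbtb8a (0.895) and Tnfaip8l2 (0.891) and Cd300lf had Lyplal1 (0.899), Nabp1 (0.845) and Brf1 (0.835). Between members, r ran from −0.19 for Cd300ld and Cd300lf to 0.73 for Cd300a and Cd300e. All these groups share libraries of the same cell types, and the contrast of Kupffer cells with BMDMs enters every r.

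Of the 7 other listed genes of the family or its cluster, 4 at most passed the filter in untreated Kupffer cells and 1 in BMDMs given PBS. Cd300c2 was at mean levels of 206, 278 and 349 TPM in untreated Kupffer cells of A/J, of BALB/cJ and of C57BL/6J but at 7.21, 113 and 147 in BMDMs given PBS. It was lower in A/J BMDMs by log2 −4.04 ± 0.16 than in BALB/cJ (edgeR adjusted p = 6.3e-07) and by −4.42 ± 0.10 than in C57BL/6J (adjusted p = 1.1e-13), and by −1.15 than in C57BL/6J in Kupffer cells on the diet. Between cell types the A/J difference of Cd300c2 changed by 3.58 against BALB/cJ and 3.64 against C57BL/6J, both called. Cd300ld4 and Cd300ld5 stood at 10.6 and 10.4 TPM in untreated C57BL/6J Kupffer cells and at 0.25 to 0.28 for A/J and BALB/cJ, and since 93.8% of their 50-base windows are shared, their reads cannot be assigned to either with certainty. Both were called lower than C57BL/6J in untreated A/J (−5.40 and −5.38) and BALB/cJ cells (−5.12 and −5.10) and in BALB/cJ donor cells in NSG recipients (−6.55 and −6.54). They were also called lower with LPS in C57BL/6J (−5.74 and −5.72) and CB6F1/J (−1.11 and −1.09) and on the diet in C57BL/6J (−2.04 and −2.20). Their difference between BALB/cJ and C57BL/6J changed between cell types (−4.54 ± 1.06 and −4.45 ± 1.05). Cd300ld3 was at mean levels of 8.18 to 11 TPM in untreated Kupffer cells and was called lower with LPS (−2.30) and on the diet (−1.97) in C57BL/6J, higher on the diet in A/J cells than in those of C57BL/6J (4.17 ± 0.85) and higher in NSG recipients than in untreated cells in BALB/cJ (1.34). Its A/J difference was also called between cell types, at 4.52 ± 1.22 against BALB/cJ and 3.80 ± 1.18 against C57BL/6J. Cd300ld3, Cd300ld4 and Cd300ld5 did not pass the filter in BMDMs given PBS. Their changes between cell types therefore rest on BMDM values below the filter. Cd300lg, a related gene of endothelium elsewhere on chromosome 11, was at 1002 to 1073 TPM in LSECs as a group mean and at 36.5 to 170 TPM in BALB/cJ Kupffer cell libraries on the AMLN diet. It was called higher there than in untreated BALB/cJ cells (6.33) and than in C57BL/6J on the diet (4.13), and on the diet A/J also exceeded C57BL/6J (3.24). In the diet libraries the LSEC marker sums given above were likewise higher in A/J and BALB/cJ than in C57BL/6J. Their part in the Cd300lg values was not tested.

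The signalling partners of the family are the adaptors, kinases and phosphatases that its tails engage, of which 13 were tested in Kupffer cells. With LPS 5 of 13 rose and 1 fell in each of BALB/cJ, C57BL/6J and CB6F1/J, where 32.1, 38 and 39.5% of all genes were called. Among those that rose, Fgr, a kinase of the Src family, was higher by log2 2.68, 2.31 and 2.68 and the adaptor gene Fcer1g by 1.44, 1.38 and 1.61, with Lyn and Syk also called. Inpp5d, the lipid phosphatase SHIP, fell by 2.05, 2.24 and 2.15 on the log2 scale. With KLA, Syk rose in all 4 strains (1.01 to 1.39), and Inpp5d fell by 1.10 in C57BL/6J. Between strains, edgeR called 0 of 13 partners in untreated Kupffer cells and in NSG recipients and 0 of 12 in BMDMs given PBS, with 1 to 4, 1 and 5 to 9 of them at an unadjusted p under 0.05. Only 3.17 to 5.93% of all genes were called in these comparisons, so counts of 0 among 12 or 13 genes are near the background. On the AMLN diet Fgr was the partner called between strains, at 1.46 for A/J minus BALB/cJ and −1.36 for BALB/cJ minus C57BL/6J. Of other paired receptors of myeloid cells, Trem2 in untreated Kupffer cells differed by log2 −1.80 for A/J minus BALB/cJ and 1.22 for BALB/cJ minus C57BL/6J, both called. With LPS 3 of 12 such receptors rose and 1 fell in BALB/cJ, 3 and 1 of 11 in C57BL/6J and 2 and 1 of 11 in CB6F1/J, shares near or below those of all genes given above. With KLA 1 of 7 rose in A/J, 3 of 9 in BALB/cJ, 5 of 11 in C57BL/6J and 1 of 9 in CB6F1/J, and 0 fell, beside 12.1, 14.1, 17.1 and 12.4% of all genes. The counts in A/J and CB6F1/J are near those shares.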

How the data were processed

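RNA-seq was measured in 85 libraries of mouse Kupffer cells, BMDMs, LSECs, stellate cells and hepatocytes, grouped by the strain, cell type and treatment of the labels. The libraries were made from poly(A) RNA with dUTP marking. The authors mapped reads with STAR to strain genomes, placed them on mm10 coordinates and counted them with HOMER. The BALB/cJ and A/J genomes were mm10 with known single-base variants and short insertions and deletions put in. The paper states that this leaves out larger structural variants of these strains. Versions and the strand setting of counting were not given in the sources used here, and reads of overlapping antisense genes may mix. The deposited tables of inbred liver cells hold read counts over exons. Those of inbred BMDMs and of CB6F1/J hold expected counts in steps of 0.5 as deposited, which were rounded to whole numbers. The deposited TPM values were made by the authors from the isoform with the highest count and were used for levels and a filter. For CB6F1/J the 2 columns of each library, 1 per parental genome, were averaged, and variant-spanning reads were used for alleles. Columns of no mapped sample numbered 0. The labels do not tie libraries to animals, and p-values reflect only how far libraries differ, which may be technical.

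The 5 members, the gene lists and the named genes were chosen with earlier results of these data known. The text names the 5 members in every comparison, called genes of the cluster and of the signalling partners, other paired receptors mainly by counts, and the 3 genes most like each member. The values of 1 called partner are not reported here. Groups were compared by edgeR 4.0.16 with its quasi-likelihood test (R 4.3.3, TMM, robust fit) over the libraries of the contrast, on genes that passed filterByExpr with a mean above 8 TPM in at least 1 group. P-values were adjusted over all genes tested by Benjamini-Hochberg, and SE was the absolute log2 fold change over the root of F. The study named DESeq2, which was run as an alternative (1.42.0). Alleles were tested for autosomal genes whose variant-spanning reads averaged 10 or more a library (1016 genes on X, Y or the mitochondrion were left out). Both alleles come from the same library, and their deviations from the allele means correlated at 0.33 to 0.60. The main allele fits did not model this pairing, which entered only in the alternative with each library as a block. In 6 of the comparisons simulated counts with known changes were tested, and all changed genes at log2 2 and 3 were recovered. Unchanged genes were called, 7 in the direct test of A/J against BALB/cJ between cell types, 1 in the untreated allele test and 0 elsewhere. The counts were drawn with the same spread for every gene and with both alleles independent. Recovery in noisier libraries or of changes near log2 1 was therefore not tested. The other alternatives were RLE normalization, no TPM minimum, each library left out, a replicate block, 1 fit over the cell type, no scaling between alleles and all perfectly matching reads. Library totals in place of TMM, CPM in place of TPM and crossed replicate numbers were added after the data were seen. Sequences were matched by symbol to RefSeq tables, with 5 of 5 members found. Wilson intervals are at 95%. Figures were drawn with matplotlib 3.10.9, and tables joined with pandas 2.3.3.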

Additional observations from a re-analysis of the deposited data

Results flagged for a closer look

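In untreated CB6F1/J Kupffer cells, Cd300e stood at 91.6 TPM in replicate 2, apart from the other 3 libraries at 49.6 to 56.7 TPM. It was flagged by the gap between this library and the others, among 29 sets of values tested that way, where chance flags about 1 in 20.

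Several strain differences were flagged because a direct test found them to differ between untreated Kupffer cells and BMDMs given PBS (Kupffer cells minus BMDMs, log2, edgeR adjusted p under 0.05). For A/J against BALB/cJ these were Cd300e at 2.12, Cd300lb at 1.28, Cd300a at 0.88 and Cd300ld at −0.54. For A/J against C57BL/6J they were Cd300ld at −2.34, Cd300lf at −1.86, Cd300lb at 1.37 and Cd300a at 1.15. For BALB/cJ against C57BL/6J they were Cd300e at −2.10, Cd300ld at −1.80 and Cd300lf at −1.36. The 3 tests share libraries and are not independent.

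The difference between BALB/cJ and C57BL/6J was flagged for changing from untreated Kupffer cells to NSG recipients, by 2.62 for Cd300e and 1.07 for Cd300ld. The response of Cd300lb to KLA differed between BALB/cJ and C57BL/6J BMDMs by 1.90. The allele difference of Cd300ld differed between untreated CB6F1/J Kupffer cells and BMDMs by −0.81.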

How the results depend on the processing

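Of 44 calls of members over 37 comparisons, 37 were kept under every alternative run and 7 were lost under at least 1. With the replicate number as a block the samples shared only a number across groups (correlations of deviations of −0.50 to 0.49 in 22 comparisons). The member count was the same in 32 of 37 blocked fits, but in 1 of these, the diet in C57BL/6J, Cd300e lost its call (−1.76, adjusted p = 0.0782) and Cd300lf gained one (−1.08, adjusted p = 0.0058). The count went from 0 to 1 in NSG recipients between donors (Cd300lb), from 2 to 1 between A/J and BALB/cJ on the AMLN diet (where Cd300ld had an adjusted p of 0.0525), from 1 to 2 for LPS in CB6F1/J (Cd300e), from 2 to 3 for NSG recipients against untreated C57BL/6J (Cd300a) and from 2 to 3 for the change of the strain difference in NSG recipients (Cd300lb). Among all genes the block moved the count of calls from 73 to 20 between A/J and BALB/cJ on the diet, from 4 to 829 and 282 to 630 for the diet in A/J and BALB/cJ, from 9 to 4 for the direct test of LPS, from 107 to 49 for that of the diet and from 0 to 1 for the allele test of KLA. Crossing the numbers gave 389 genes in place of 360, 355 in place of 362 and 1000 in place of 996. The block changed no other call of a member.

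With library totals the member count was 3 in place of 2 for LPS in BALB/cJ, 0 between BALB/cJ and C57BL/6J on the diet, 2 and 4 for LPS in C57BL/6J and CB6F1/J, 2, 3 and 3 for KLA in A/J, C57BL/6J and CB6F1/J, 1 for NSG recipients against untreated C57BL/6J and 1 for the direct test of LPS. There Cd300e was at −0.032 between NSG donors, −0.084 for LPS in C57BL/6J and −0.044 in the direct test of A/J against C57BL/6J between cell types. Without the TPM minimum the count was 1 between NSG donors, 2 for LPS in CB6F1/J, 3 in place of 2 for NSG recipients against untreated C57BL/6J (Cd300a) and 1 for the direct test of LPS. DESeq2 gave 1 for the direct tests of LPS and of the diet and 3 in place of 2 for the change of the strain difference in NSG recipients (Cd300lb). On all perfectly matching reads, which include reads without a variant, 0 members were called between alleles in untreated and in LPS-treated cells. There Cd300ld fell under the fold threshold, at −0.90 and −0.85, and kept its edgeR adjusted p (2.7e-06 and 0.021). The cause of these changes was not tested.

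With 1 library left out, the count ranged from 2 to 3 for LPS in BALB/cJ, 0 to 1 between NSG donors, 0 to 1 between BALB/cJ and C57BL/6J on the diet, 1 to 2 for LPS in C57BL/6J and CB6F1/J, 1 to 2 for KLA in CB6F1/J, 0 to 2 for the diet in C57BL/6J, 1 to 2 and 2 to 3 for NSG recipients against untreated BALB/cJ and C57BL/6J, 1 to 3 for the change of the strain difference in NSG recipients and 0 to 1 for the direct test of LPS. Cd300e lay at −0.042 to 0.031 between NSG donors and at −0.030 to 0.075 in the direct test between cell types. Where this left a group with 1 library, that library was assumed to vary like the other group. In CPM in place of TPM, the log2 ratio of the highest to the lowest Kupffer cell group of Cd300a was 1.96 in place of 2.63. Over all other results and alternatives, 371 member counts equalled the reported count, 4 levels moved by less than the spread of libraries, and 1020 log2 differences of members kept their side of the threshold and their direction. Depth limits the allele values of Cd300lb, which rest on 20 to 356 reads a library, and gives none for Cd300a, Cd300e and Cd300lf.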
